A study of Mus musculus with 249 samples.

Results

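The cytosolic ribosomal protein genes encode the proteins of the 80S ribosome, which makes nearly all proteins of the cell, and were followed here in the brains of F2 mice. The members were all array probes with a single gene symbol that begins with Rpl or Rps and a digit, or that is Rpsa, Rplp0, Rplp1 or Rplp2, without the Rps6k kinases and without pseudogene symbols. This gave 183 of 23388 probes, for 43 of 11633 gene symbols. Of these probes 160 had a value on 90% or more of the arrays and were used, and 23 (12.6%) did not and were left out, against 335 (1.43%) of all probes. They gave a value for 40 of 11508 genes, and Rpl14, Rps12 and Rps29 had no probe that was measured often enough. Among the 40 were 28 proteins of the large subunit and 10 of the small subunit. The other 2 were Rpl10l, an autosomal paralog of the X-linked Rpl10, and Rps19bp1, a binding partner of the subunit protein Rps19, which the rule takes in by its symbol.

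The animals were F2 offspring of C57BL/6J and C3H/HeJ mice, all without functional ApoE, of both sexes, and ate a Western diet between 8 and 24 weeks of age. All carry the ApoE null alleles, so no animal stands for the wild type. Brain RNA of each animal, labelled with Cy3, was compared on 1 array with a pool, labelled with Cy5, of the RNA of all animals. A sample description names 330 F2 animals, while 249 have an array here, so the pool may include animals without one. The labels put the animals in 1 group and give an animal number but no sex, genotype or array batch for each, so the only division that does not come from the values is later (193 and above) against earlier (192 and below) animal numbers, with as many animals in one as in the other. On the log10 scale of the values, which set the animal over the pool, 0.301 is a factor of 2. They show how animals differ in 1 gene and carry no absolute level, so that no gene's level can be set against another's.

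The array of animal 144 was left out by the rule. On it all 7 measured lung markers lay above, and all 10 measured neuron markers below, every other array. The other arrays of the 249, which all values below are taken over, had SDs over non-member genes of 0.0669 to 0.252, with a median of 0.0828. Animals 178, 213 and 336 had the largest of these and are among the 12 most variable arrays, without which some of the SDs and r to other genes are given again. There was 1 array per animal, so the spread between animals includes the error of the array, which cannot be split off, and precision is limited by how many arrays there are. In whole brain, fewer cells of a type and less RNA per cell cannot be told apart.

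Ribosomal proteins are made in matched amounts and join ribosomal RNA in the nucleolus to form the 2 subunits. In mammals their mRNAs are among the most abundant in most cells, and most begin at a C followed by a run of pyrimidines, the terminal oligopyrimidine (TOP) tract, through which the mTOR kinase and the RNA-binding protein Larp1 control their translation. Neurons use ribosomes in the cell body and also in dendrites and axons. The start sequences below are from the RefSeq mouse table (build GRCm38.p6, C57BL/6J). They run from 40 bases before to 20 bases after the annotated start and were searched for such a run. Capitals mark at least 5 pyrimidines in a row, counted from a C within 10 bases of that start. A further pyrimidine can stand before that C, as the T does in Rpl38, Rps26, Rpl12 and Rplp2. Among the sequences shown, only the marked run of Rpl38 begins at the annotated start itself. Rpl38, Rps26 and Rpl12 followed the other members closely. Rps6 and Rplp2 stood on the side opposite to Rpl23 and Rpl7a in the second axis of variation described below. Rps2 is one of the genes, with Rps3, whose probes fell into levels. Every sequence shown holds a run, while Rps15, Rpl10, Rpl27 and Rpl37a, with the highest r to the other members, had none.
Rpl38 (chr11:114668540-114668599, plus strand): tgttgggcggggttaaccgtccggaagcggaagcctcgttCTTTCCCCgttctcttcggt
Rps26 (chr10:128626487-128626546, minus strand): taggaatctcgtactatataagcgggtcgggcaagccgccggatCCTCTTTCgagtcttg
Rpl12 (chr2:32961672-32961731, plus strand): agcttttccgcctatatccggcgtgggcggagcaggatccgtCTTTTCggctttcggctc
Rps6 (chr4:86857348-86857407, minus strand): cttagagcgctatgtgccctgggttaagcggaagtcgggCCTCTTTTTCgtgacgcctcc
Rplp2 (chr7:141447611-141447670, plus strand): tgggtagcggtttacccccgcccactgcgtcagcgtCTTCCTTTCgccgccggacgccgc
Rps2 (chr17:24720023-24720082, plus strand): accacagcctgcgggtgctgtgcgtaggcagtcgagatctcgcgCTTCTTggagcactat

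Of the 43 member symbols 34 had an entry in that table. A run of at least 5 pyrimidines was present in 20 of the 34 (58.8%), against 34.9% of 17492 protein-coding genes. A run of at least 7 was present in 14 (41.2%), against 14.5% of all genes. The motif CCGGAAG, the core that ETS family factors such as GABP bind, was found on either strand between 250 bases before and 50 after the start in 14 members (41.2%), against 12.9% of all genes, and stands before the run in Rpl38 above. AANATGGC, a YY1 motif, was found in 4 members (11.8%) against 7.46% of all genes, and TATAAA in 3 (8.82%) against 14.8%. Read on the other strand, CCGGAAG holds a run of pyrimidines that begins with C, so its count and that of the runs can share bases. These matches describe letters in a window and show no bound factor. Among members with a value, the 18 with a run of at least 5 had a median r to the mean of the other members of 0.382, and the 14 without one had 0.552, so the members with a run did not follow the rest more closely.

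The spread of ribosomal protein genes between animals, set against that of all genes, depended on how probes were combined. As means over probes their median SD was 0.0461, against 0.0546 for all genes, and 30 of the 40 lay below that median. With the most variable probe of each gene it was 0.0604, against 0.0576 for all genes, and 18 of 40 lay below. Of the 26 members with several probes 14 lay below the median of other such genes (0.0413 for members, 0.0431 for the others), and of the 14 with 1 probe 10 lay below that of other such genes (0.0488 and 0.0562). Without the 12 most variable arrays the median SD was 0.0365, against 0.0477 for all genes. The ratio of the 95% to the 5% point over animals had a median of 1.34-fold for members and 1.45-fold for all genes. Members averaged between -0.0273 and 0.00894 against the pool.

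Rps3, a small subunit protein at the site where mRNA enters, had the largest SD, 0.125, which was above that of 96.2% of all genes. It ran from -0.334 over a median of -0.00769 to 0.326, and its 5% and 95% points were 2.46-fold apart. Next came 4 genes whose SDs lay between 0.0752 and 0.0852. Rpl38, a large subunit protein that in mouse embryos is needed for the translation of a subset of Hox mRNAs, ran from -0.305 over -0.0111 to 0.405 (SD 0.0852). Rps26, a small subunit protein mutated in some human Diamond-Blackfan anaemia, ran from -0.376 over -0.0296 to 0.392 (SD 0.0763). Rpl37a, of the large subunit, ran from -0.448 over -0.0249 to 0.345 (SD 0.0758). These 3 were highest in animal 178 and lowest in animal 336. Without the 12 most variable arrays Rpl38 ran from -0.241 to 0.246 (SD 0.0754), Rps26 from -0.270 to 0.142 (SD 0.0630) and Rpl37a from -0.228 to 0.162 (SD 0.0626), while the SD of Rps3 was 0.123. Rpl22, a large subunit protein that also binds other RNAs and is needed for T cell development in mice, ran from -0.140 over -0.00668 to 0.285 (SD 0.0752). Rpl23, of the large subunit and an inhibitor of the p53 ubiquitin ligase Mdm2, had an SD of 0.0616 and a long upper side, from -0.109 over -0.0284 to 0.299.

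As means over probes, the least variable members were Rpl19, Rpl9 and Rps7, with SDs of 0.0214, 0.0244 and 0.0252. Rpl19 ran from -0.105 over 0.0104 to 0.0546, so its highest and lowest animals differed 1.44-fold. In all, 6 members were among the 10% of genes that varied least and 1, Rps3, among the 10% that varied most. With the most variable probe of each gene these counts were 3 and 5.

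**Figure D1:**
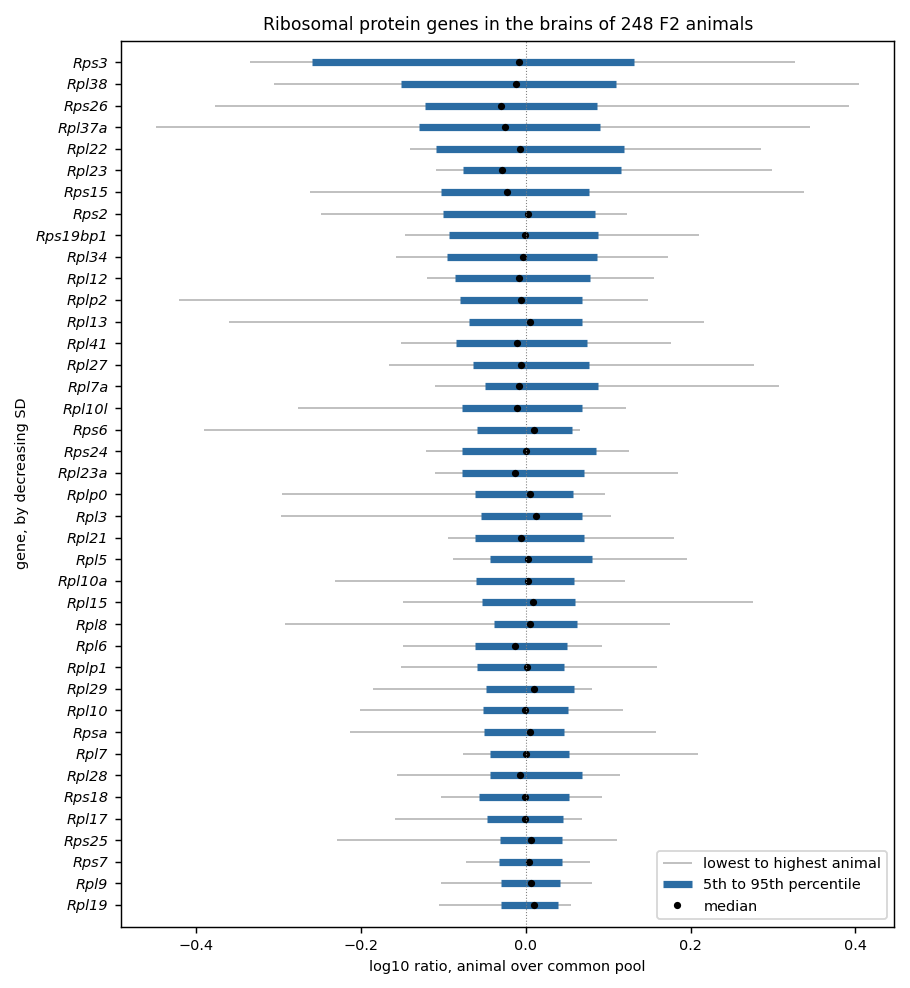
Log10 ratio of animal to pool (horizontal) for the 40 ribosomal protein genes, ordered down the page by decreasing SD over animals. Grey lines run from the lowest to the highest animal, blue bars from the 5% to the 95% point, and dots are medians; the bar of Rps3 spans 2.46-fold and that of Rpl19 1.17-fold.

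Probes of 1 member often differed. For the 26 members with several probes the median over pairs of probes of Pearson's r had a median of 0.386, against 0.118 for 1257 other genes with several probes. By this median the probes of Rps6 agreed best (0.971 over 10 pairs), followed by those of Rpl41 (0.938 over 21 pairs) and Rpl38 (0.935, 1 pair). The lowest r between 2 probes was -0.269 in Rps6 and 0.852 in Rpl41. Rpl41 encodes a very short basic peptide of the large subunit. The probes of Rpl19 had a median r of -0.363 over 3 pairs, those of Rplp1 -0.191 over 6 pairs, those of Rps7 -0.039 over 10 pairs and the 2 of Rplp0 an r of 0.041. Those of Rpl9 had a median r of 0.088 over 28 pairs. The small SDs of Rpl19, Rpl9 and Rps7 are therefore SDs of a mean of probes that mostly did not move together. Many ribosomal protein genes have near-identical processed pseudogenes, and Rpl10l shares much of its sequence with Rpl10, so which copy a probe read is uncertain.

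The members moved together to a moderate degree. Over the 780 pairs Pearson's r across animals had a mean of 0.211, and 14.7% of pairs reached 0.5, against 2.86% of all pairs of genes. At the other end 3.97% of member pairs lay at -0.3 or below, against 10.3% of all pairs. Pairs within the large subunit averaged 0.189, pairs within the small subunit 0.247 and pairs between the subunits 0.208, so the subunit a protein belongs to did not set these pairs apart. When the most variable probe stood for each gene the mean r was 0.116, and without the 12 arrays of largest SD it was 0.204.

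A block of members followed the mean of the others closely. Rps15, a small subunit protein near the decoding site, had the highest r to the mean of the other members, 0.838, and ran from -0.261 over -0.0224 to 0.337. It was followed by Rpl10 (0.829), which lies at the site where the subunits meet and is on the X chromosome, by Rpl27 (0.825), by Rpl37a (0.798) and by Rps26 (0.774). Rpl12, part of the stalk base that binds elongation factors, reached 0.735, the paralog Rpl10l 0.718 and Rpl6, of the large subunit, 0.685. The closest pair was Rpl37a with Rps15, at r 0.910 over animals, and Rpl10 with its paralog Rpl10l stood at 0.868. Rps19bp1, which is no subunit, stood at 0.599. In all, 17 members reached 0.5. Smaller groups stood out too, with r 0.809 between Rpl22 and Rps24, 0.739 between Rpl13 and Rplp2 and 0.777 between Rpl23 and Rpl7a.

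Others did not follow the block. Rpl17 had an r to the other members of -0.059, Rpl5, which with Rpl11 carries 5S ribosomal RNA into the ribosome, 0.015, and Rpl28 0.029. Rpl7a stood at 0.103, Rpl19 at 0.216 and Rpl23 at 0.218. Some of them opposed other members. Rpl23 had r -0.600 with Rpl29 and -0.506 with Rplp0, which anchors the P stalk of the large subunit. These are r between means over probes. The median r between probes was 0.662 for Rpl23 but 0.2 for the 18 probes of Rpl29, and 0.041 for the 2 of Rplp0. Rpl7a had r -0.528 with Rps6, the small subunit protein that S6 kinases phosphorylate. The first principal component of the 40 genes held 28.7% of their variance and the second 19.4%, and the second set Rpl23, Rpl7a, Rpl5, Rpl22 and Rpl28 against Rpl29, Rpsa, Rps6, Rplp0, Rpl13 and Rplp2. Both sides of it hold proteins of the large subunit. With the log of the array SD the genes named on the first side had r of 0.173 (Rpl5) to 0.472 (Rpl7a). Those on the other side had r of -0.549 (Rps6) to -0.082 (Rpl13). With array SD as a covariate the second component held 17.5%, and the part of array SD in this axis was not tested.

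**Figure D2:**
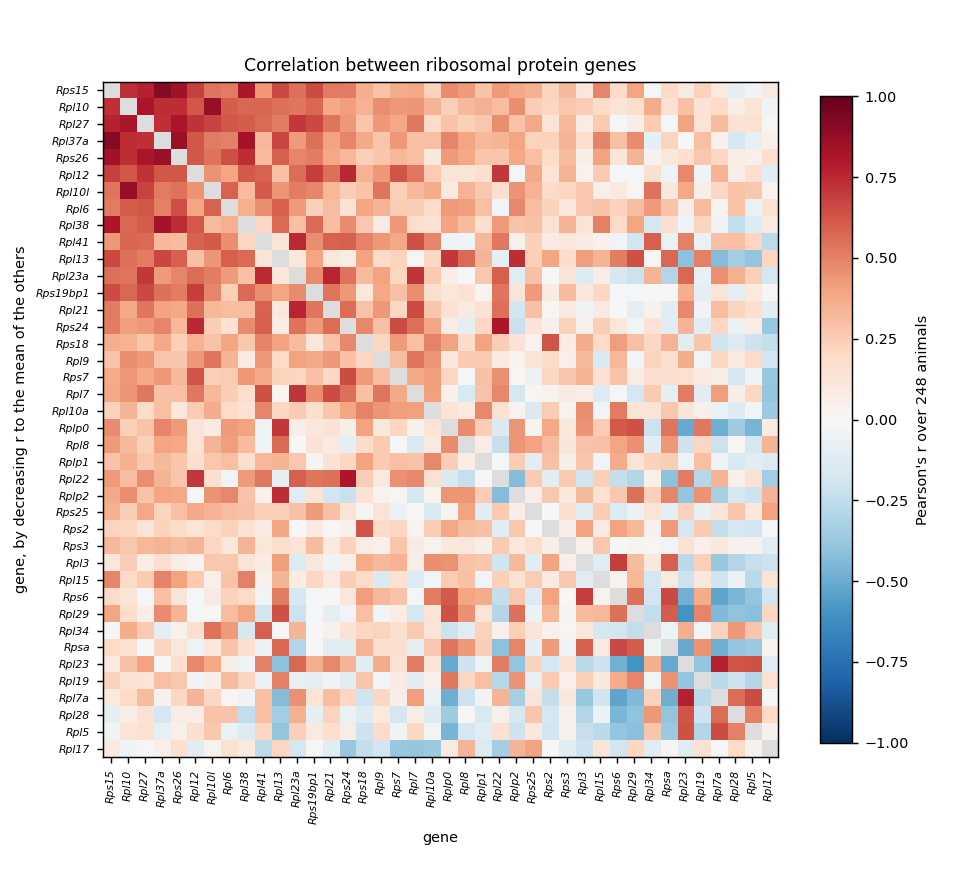
Pearson's r over animals for each pair of the 40 ribosomal protein genes, in colour from blue (negative) to red (positive), with genes in the same order on both axes by decreasing r to the mean of the others. The upper left corner holds the block around Rps15, Rpl10, Rpl27 and Rpl37a, and the lower right shows Rpl23, Rpl7a, Rpl28 and Rpl5 in red with one another and in blue with Rps6, Rpl29 and Rpsa.

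By animal, the mean over members of each gene's z (its distance from the gene's mean in SDs) ran from -2.42 over a median of -0.01 to 1.60. Animal 336 was lowest, with 27 of 40 members below the pool, and its array had the third largest SD. The next lowest were animals 89, 88 and 87, at -1.15, -0.97 and -0.96, with 36, 34 and 33 members below the pool. The highest were animals 178 (1.60), 257 (1.5), 14 (1.24) and 151 (1.22), whose array SDs ranked 1, 5, 4 and 6. The mean z of members had an r of 0.154 and a rho of 0.074 with the log of the array SD. In a limma fit on that measure 26 of 40 members were called at an adjusted p under 0.05, against 63.2% of all genes. Of the 40 members 18 were higher and 8 lower on the more variable arrays, against 35.9% and 27.4% of all genes. Rpl7a had the largest positive r (0.472, rho 0.154, adjusted p = 7.65e-14) and Rps6 the largest negative one (-0.549, rho -0.31, adjusted p = 6.15e-19, limma with Benjamini-Hochberg adjustment, as for all adjusted p-values here). Without the 12 most variable arrays 3 members were called higher and 3 lower, and 25.0% of all genes were called.

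Members were then set against scores made of other genes, each the mean z of a list. The respiratory chain score was the mean of 23 subunits of the mitochondrial chain, whose mRNAs, like those of ribosomal proteins, are short and abundant. Members mostly rose with it: 27 of 40 were called higher and 6 lower, 82.5% in all against 65.7% of all genes, of which 34.4% were called higher and 31.2% lower. With this many animals most genes pass the threshold, so the sizes of r are given beside the calls. An r of at least 0.3 was reached by 24 members (60.0%) against 17.3% of all genes, and the median r was 0.373 for members and 0.0143 for all genes.

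Rpl41 had the largest r with the respiratory chain score, 0.736 (rho 0.699, and r 0.720 without the 2 arrays farthest from the score's median), and rose by 0.0359 ± 0.00212 (SE) on the log10 scale per SD of the score (adjusted p = 4.00e-41). Rpl10l (r 0.717), Rpl10 (0.686), Rpl23 (0.681) and Rpl27 (0.661) came next. Rpl23 thus rose with the score although it did not follow the other members. The 6 that fell were Rpl29 (r -0.321, adjusted p = 9.02e-07), Rps6 (-0.28), Rpsa, the laminin receptor and small subunit protein (-0.257), Rplp0 (-0.251), Rpl19 (-0.234) and Rpl17 (-0.189). Over all alternatives tried, 22 to 28 members were called higher and 3 to 6 lower. With the most variable probe of each gene 6 were called lower, and 4 of these were among the 6 named.

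The list of elongation factors and other TOP mRNAs, with 12 measured genes, was drawn up as RNAs with the start tract of ribosomal proteins. Their own start sequences are not given here, and r between pairs of them averaged 0.103. With their score 29 members rose and 2 fell, 77.5% against 51.5% of all genes, of which 22.0% rose and 29.5% fell. Rpl10a, of the large subunit, had the largest r, 0.661 (rho 0.567, adjusted p = 1.16e-29), followed by Rpl9 (0.603), Rpl3 (0.554), Rps7 (0.543) and Rps6 (0.485). Rpl17 fell (r -0.474, rho -0.458, adjusted p = 1.05e-13). Rpl15 was also called lower (r -0.144, adjusted p = 0.0461), but its rho was -0.018. Without the 2 arrays farthest from the score's median the r of Rpl15 was -0.009, so its call rested largely on them. Only 14 members reached an r of 0.3 (35.0%), against 7.73% of all genes. Rps6 (rho 0.345, and r 0.263 without the 2 arrays farthest from the score's median) and Rpsa rose with this score and fell with that of the respiratory chain. The rise of Rpsa (r 0.238, rho 0.116) rested largely on those 2 arrays, without which its r was 0.077. The number of members called higher was 18 with probes measured on every array, 19 with the most variable probe of each gene and 18 within the earlier animal numbers.

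With the score of 30 mitochondrial ribosomal proteins, which form the separate ribosome inside mitochondria, 27 members rose and 1 fell, 70.0% against 51.7% of all genes. Of all genes 25.8% rose and 25.9% fell. An r of at least 0.3 was reached by 16 members (40.0%) against 7.82% of all genes. Rps19bp1 (r 0.718, adjusted p = 1.38e-37), Rpl12 (0.655), Rpl10 (0.623), Rpl27 (0.576) and Rpl38 (0.57) led, and Rpl17 fell (r -0.15, adjusted p = 0.0388). The call of Rpl17 was lost in 6 of 10 alternatives, and its adjusted p over the 10 ran from 2.80e-04 to 0.593. In some of those 6, Rpl19, Rpl28 or Rps6 were called lower. The 3 scores were related among themselves, with r of 0.401 between respiratory chain and TOP mRNAs, 0.699 between respiratory chain and mitochondrial ribosome and 0.358 between TOP mRNAs and mitochondrial ribosome, so the 3 counts are not independent. With the log of the array SD, r was 0.322 for the respiratory chain, -0.251 for the TOP mRNAs and 0.124 for the mitochondrial ribosome.

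**Figure D3:**
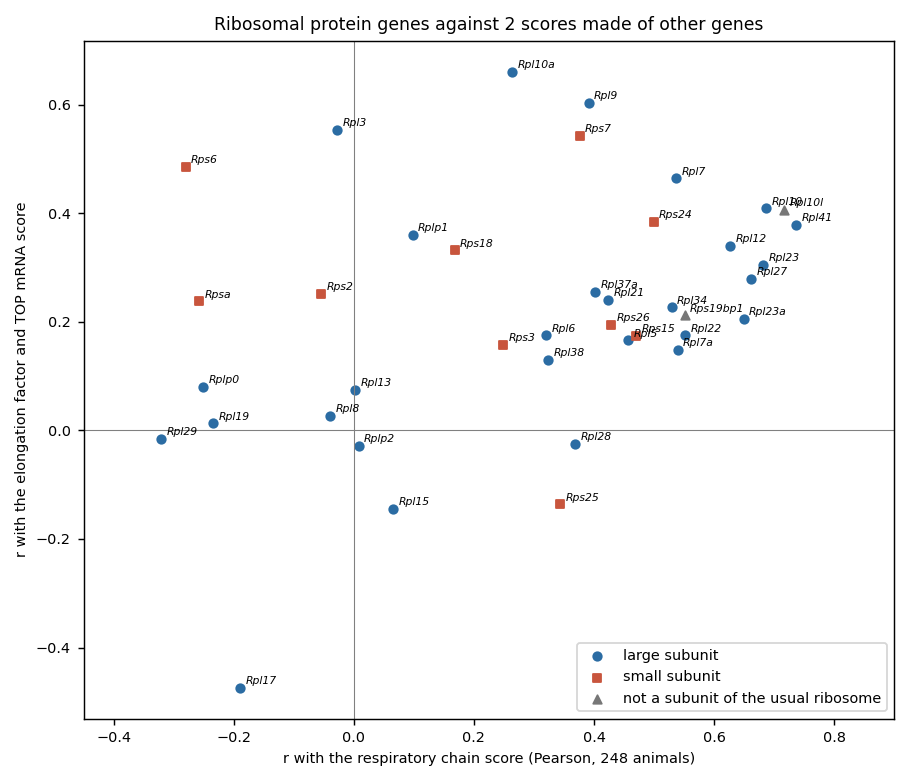
Pearson's r of each ribosomal protein gene with the respiratory chain score (horizontal) and with the elongation factor and TOP mRNA score (vertical), over animals; circles are large and squares small subunit proteins, and triangles are Rpl10l and Rps19bp1. Most genes lie in the upper right, and Rps6 and Rpsa are among those in the upper left. Rpl17 and Rpl29 lie in the lower left, Rpl29 close to the horizontal line (vertical r -0.015).

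The mean of the members can also be compared with each list, as a description over the same arrays. It had r 0.596 with the mean of the respiratory chain (rho 0.597), 0.550 with that of the mitochondrial ribosome, 0.527 with that of the proteasome and 0.459 with that of the TOP mRNAs. Without the 12 most variable arrays these were 0.577, 0.533, 0.578 and 0.549, so the order of the lists was not stable. Fau, whose product is cleaved to give the small subunit protein Rps30, stood at 0.631 and was the measured gene of the list of ribosomal fusion proteins. Within the TOP list Eif3h, a subunit of initiation factor 3, stood at 0.690, Eef1b2 at 0.561 and Btf3 at 0.546, while Eef2, the translocation factor, stood at -0.07 and Eef1d at -0.181. An r of at least 0.3 was reached by 14 of 23 genes of the respiratory chain, 11 of 30 of the mitochondrial ribosome, 11 of 30 of the proteasome and 3 of 12 of the TOP list, against 10.8% of all genes.

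Other parts of the machinery that makes and runs ribosomes followed the members less. The mean of 21 initiation factors had r 0.036 with that of the members, with 3 genes at 0.3 or above (Eif3i, 0.547, Eif2b4, 0.419, and Eif2b5, 0.405) and 4 at -0.3 or below (Eif4a2 lowest, -0.403). That of 18 ribosome biogenesis factors had r 0.212, with Pes1 at 0.627 and Emg1 at -0.477. RNA polymerase I, which transcribes ribosomal RNA, had -0.127 over 9 genes, the cytosolic aminoacyl-tRNA synthetases 0.127 over 7, and the mTOR pathway -0.174 over 17, with Eif4ebp1 at 0.310 and Rictor at -0.377. Without the 12 most variable arrays the initiation factors stood at 0.091, the synthetases at 0.059, the mTOR pathway at -0.283, Eif4ebp1 at 0.234 and Rictor at -0.425. In the limma fit on the respiratory chain score these lists had 8 genes higher and 7 lower of 21 initiation factors, 6 higher and 6 lower of 18 biogenesis factors and 4 higher and 11 lower of 17 in the mTOR pathway, against the 34.4% higher and 31.2% lower of all genes. The shares of the initiation and biogenesis factors are near that background.

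Among the cell type lists the microglial one was nearest to the members, at r 0.376 (0.314 without the 12 most variable arrays). Of its 8 genes 3 stood at 0.3 or above, against 10.8% of all genes, namely Tyrobp (0.589), Trem2 (0.410) and C1qa (0.334), while Cx3cr1 and Csf1r stood at 0.077 and 0.169. The oligodendrocyte precursors stood at -0.292 (-0.332 without those arrays), with 1 of 8 genes at -0.3 or below, against 13.3% of all genes. The neurons stood at -0.175 over 10 genes (-0.220 without) and the myelin genes at -0.170 over 9 (-0.199 without). The astrocytes stood at -0.172 over 8, but at -0.058 without those arrays and at a rho of -0.03. The endothelial list stood at -0.135 and the meningeal one at 0.105, and the lung, pituitary, red cell, choroid plexus and cerebellar lists lay between -0.046 and 0.139. The lists of heat shock and immediate early genes stood at 0.1 and 0.123. The part of any cell type in the members' shared variation was not tested.

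Of 11468 non-member genes, 141 had an r of at least 0.5 with the mean of the members and 207 of at most -0.5. The 15 highest were Ly6g6c (0.824), Gm11517 (0.781), Reg3d (0.770), NHEDC1 (0.757), Pfdn5 (0.755), Hint1 (0.735), Fabp5 (0.727), CHCHD6 (0.714), Olfr1208 (0.698), Eif3h (0.690), Ndufb7 (0.686), S100a6 (0.679), Ebp (0.673), Calm2 (0.669) and Gm4859 (0.657). Pfdn5 is a subunit of the prefoldin chaperone, Ndufb7 a subunit of complex I, Fabp5 a fatty acid binding protein and Olfr1208 an olfactory receptor. The 8 lowest were Ogt (-0.777), the enzyme that adds N-acetylglucosamine to proteins, Ppp4r1 (-0.765), Usp28 (-0.736), Golga4 (-0.733), RBM25 (-0.708), Pdpr (-0.702), Vegfa (-0.696) and Sltm (-0.692). The genes at either end differed in length: the 100 highest had a median genomic span of 8.18 kb and the 100 lowest 53.8 kb, against 21.9 kb for all genes and 3.31 kb for the members themselves.

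Later animal numbers were set against earlier ones, the one division the labels give. Of the 40 members 5 were higher and 1 lower in later numbers, 15% against 18.3% of all genes, of which 7.03% were higher and 11.3% lower. All differences were small. Rpl22 averaged 0.0130 ± 0.0729 in later and -0.0176 ± 0.0746 in earlier numbers (SD over animals), with a lowest, median and highest value of -0.136, 0.0173 and 0.246 in later and -0.140, -0.0260 and 0.285 in earlier numbers. The 2 ranges overlap almost entirely and the means differed 1.07-fold (difference 0.0306 ± 0.00933 (SE), adjusted p = 0.0115). Rps24, a small subunit protein, averaged 0.0143 ± 0.0425 in later and -0.0102 ± 0.0479 in earlier numbers, a difference of 0.0244 (adjusted p = 8.57e-04).

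Rpl12 (difference 0.0180, adjusted p = 0.0361), Rpl10a (0.0148, adjusted p = 0.0224) and Rps7 (0.0107, adjusted p = 0.00946) were also higher in later numbers, by 1.02- to 1.04-fold. Rpl17 was lower, with -0.00877 ± 0.0317 in later and 0.00561 ± 0.0273 in earlier numbers (difference -0.0144, adjusted p = 0.00314). With animal 144 included, or with the animal number as a continuous measure, 2 members were called higher. Among the related lists, 9 of 30 mitochondrial ribosomal proteins, 11 of 30 proteasome subunits and 6 of 23 respiratory chain subunits were higher and none was lower. The same held for 6 of 21 initiation factors and 4 of 18 ribosome biogenesis factors. Of the 12 genes of the TOP list 6 were higher and 2 lower, and of 9 of RNA polymerase I 3 were higher and 1 lower. In the mTOR pathway 7 of 17 genes were lower and none higher, and of 7 synthetases 2 were lower and none higher. Of all genes 7.03% were higher and 11.3% lower. What differed between animals with early and late numbers is not given in the labels.

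**Figure D4:**
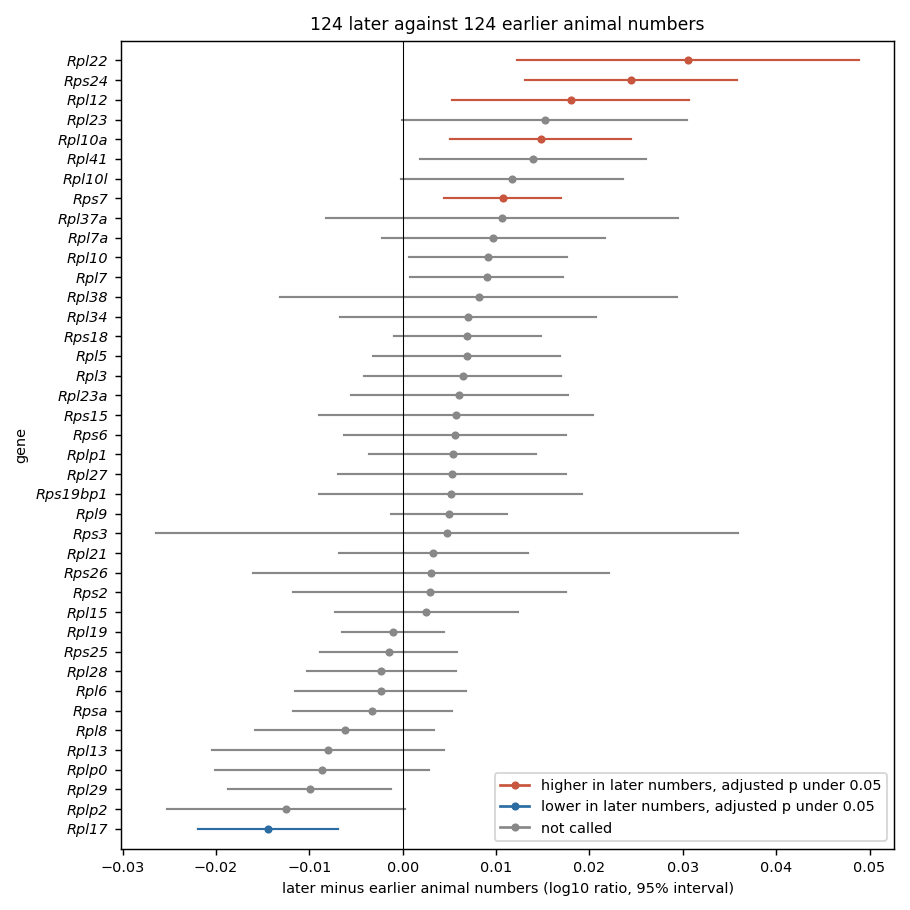
Difference in log10 ratio between later and earlier animal numbers, which hold equally many animals, (horizontal, later minus earlier) for the 40 ribosomal protein genes, with 95% intervals from limma; red marks genes higher and blue genes lower in later numbers at an adjusted p under 0.05, grey the others. Every difference lies between -0.0144 and 0.0306.

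In an F2 intercross the 3 genotypes at 1 locus occur in shares of 25%, 50% and 25%, so each gene was asked whether 3 normal components in those shares described it better than 1 (gain in BIC over 10, outer means at least 2 SDs apart). This held for 4 of 40 members, Rps3, Rpl23, Rps2 and Rpl7a, against 6.19% of all genes. At a gain over 20 it again held for 4 members, against 4.15% of all genes, and with animal 144 included for 4, against 5.57%. In Rpl23 and Rpl7a the lower and middle components coincided, so their values formed a main group with an upper tail. Taken as single probes, it held for 14 of 160 member probes against 6.32% of all probes. In 7 of the 14 all 3 levels were filled, and these were 6 probes of Rps2 and 1 of Rps3.

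The Rps3 probe ran from -0.545 over 0.00359 to 0.496. It fell into a low level of 52 animals at -0.419 ± 0.0590 (SD), a middle level of 130 at -0.00525 ± 0.0552 and a high level of 66 at 0.199 ± 0.0608. No animal lay between -0.257 and -0.125, and the outer means of the mixture were 4.11-fold apart. The gene most like it among all 11468 non-members was Myo7a, an unconventional myosin, at r 0.877 over animals. Myo7a lies 11 measured genes from Rps3 on chromosome 7, and 17 of the 20 genes closest to this probe were on that chromosome. When Myo7a was divided in the same way, 229 animals (92.3%) were in the same level in both, and none was in opposite outer levels. Within the levels r was -0.034, -0.333 and 0.227 from low to high, so the likeness lay between the levels. The other Rps3 probe did not fall into levels, had r 0.378 with this one and was closest to Grcc10, a gene on chromosome 6.

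Rps2 encodes a small subunit protein at the entry of the mRNA channel, and 13 of its probes were used. The mean of 8 of them ran from -0.412 over 0.00765 to 0.176, with r between 0.885 and 0.999 among them. The lowest value was that of animal 336, well below the low group in the plot of Rps2 against Gnptg. The Gnptg value of this animal was -0.0105, and its array had the third largest SD. All 8 were closest to Gnptg, a subunit of the enzyme that tags lysosomal proteins with mannose phosphate, at r of 0.834 to 0.879. Gnptg lies 12 measured genes from Rps2 on chromosome 17, and 18 of the 20 genes closest to the mean of these probes were on that chromosome. The probe with the largest gain had 64, 129 and 55 animals at -0.147 ± 0.0373, 0.00335 ± 0.0249 and 0.115 ± 0.0287, and 223 animals (89.9%) were in the same level of Gnptg.

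Another Rps2 probe moved the opposite way. It had 52 animals at -0.127 ± 0.0380, 138 at 0.00894 ± 0.0251 and 58 at 0.109 ± 0.0271, and r of -0.808 to -0.710 with the 8. When the order of its levels was turned round, 222 animals (89.5%) were in the same level as for Gnptg and 2 were in opposite outer levels. It was closest to Srrm2 (r -0.837), also on chromosome 17. The remaining 4 Rps2 probes showed neither pattern, and their mean had an SD of 0.0264 and an r of 0.223 with that of the 8. Rps2-ps9, a pseudogene of Rps2 on the same chromosome, had r 0.780 with the mean of the 8, and the probes could read either copy. Probes annotated to 1 gene thus gave opposite orders of the same animals, so the direction in which Rps2 mRNA differed is not settled, and the mean over its probes mixes the patterns. Rps18, also on chromosome 17, had r 0.630 with that mean. Genotypes and probe sequences are not analysed here, and the cause of the levels was not tested.

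**Figure D5:**
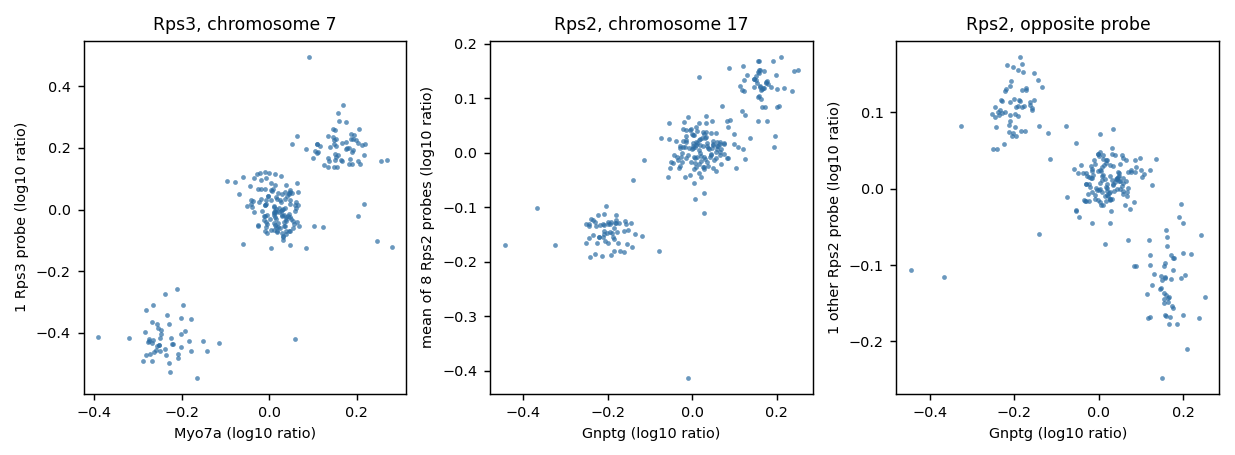
Log10 ratio of animal to pool for 1 Rps3 probe against Myo7a (left), the mean of 8 Rps2 probes against Gnptg (middle) and another Rps2 probe against Gnptg (right); each point is 1 animal. Each panel shows 3 clouds, and those of the right panel run in the direction opposite to those of the middle one.

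Across all member probes, 14 of 160 had as their closest gene one within 20 places on the same chromosome, against 3.04% of all probes, and they belong to Rps2 (8), Rpl29 (3), Rplp1 (2) and Rps3 (1). Probes of 1 gene are not independent, so these are 4 genes. At least 10 of the 20 closest genes were on the probe's own chromosome for 13 of 160 member probes, against 2.91% of all probes. Rpl29, a large subunit protein, had 18 used probes. Of these, 3 with r of 0.941 to 0.979 among them were closest to a neighbour on chromosome 9, 2 to Nprl2 (r -0.779 and -0.797, 11 measured genes away) and 1 to Rassf1 (-0.729, 13 away). The other 15 were not, and the lowest r between 2 Rpl29 probes was -0.574. Rplp1, a P stalk protein, had 2 of 4 probes closest to Cyp11a1 (r -0.697 and -0.673, 15 measured genes away on chromosome 9), while the mean of its other probes had r 0.124 with Cyp11a1. None of these Rpl29 and Rplp1 probes passed the rule for 3 levels.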

How the data were processed

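Brain RNA of 249 animals was measured on arrays with 2 colours. The deposited log10 ratios set the animal (Cy3) over the pool (Cy5), with the dyes per the labels. No source used here names the scanner, the background treatment or the dye normalization. The values end at -2 and 2, and array medians of -0.00627 to 0.0250 show that the authors had centred them, by an unknown method. Base and direction were read from the data: the 90% point of the Y-linked Eif2s3y was 0.387, near the 0.301 that a pool of both sexes gives. No pair of arrays reached r 0.99 (highest 0.841) and the lowest r was -0.259.

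Probes with 1 symbol and a value on 90% or more of arrays were averaged per gene, gaps filled with the probe's mean. Of 23388 probes 13645 had 1 symbol, 48 several and 9695 none. Symbols were updated through gene IDs with RefSeq GRCm38.p6 (12653 of 13645 matched), which also gave gene order. Tests used limma 3.58.1 in R 4.3.3 over all 11508 genes (Benjamini-Hochberg, 0.05), and were tested on simulated data. Description used Python 3.11.15 with numpy 2.4.6. Where a title and a source name disagreed on the animal number (1 sample), the source name was taken. Members and lists were chosen with earlier results of these data known. Named were the members at the ends of r to the others, SD, probe agreement and gain in BIC, those called by animal number, the 15 and 8 genes nearest to and farthest from the member mean, and up to 3 genes of a list. Others named were chosen after their values were seen. Alternatives were probe choice, arrays left out, centring, ranks, array SD as a covariate and fits within the earlier or later numbers.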

Additional observations from a re-analysis of the deposited data

How the results depend on the processing

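Of 116 values under alternatives, 88 stayed within 1.5 times the value given in the report. For later against earlier animal numbers, members called higher numbered 2 with animal 144 included, 8 without the 12 most variable arrays, 3 with the most variable probe of each gene and 2 with the number as a continuous measure. With the respiratory chain score, 3 members were called lower within the later numbers. With the TOP mRNA score, members called higher were 18 with probes measured on every array, 19 with the most variable probe and 18 within the earlier numbers. Members called lower with it were 1 with animal 144 included, without the 12 arrays, after centring each array or with array SD as a covariate, and 4 without animal 336 or with the most variable probe. With the mitochondrial ribosome score, members called lower were 0 with probes measured on every array, and 2 without the 12 arrays, with the most variable probe, by ranks or within the earlier numbers. Rpl17, the member reported, was not among those called under 6 of 10 alternatives. With array SD, members called lower were 5 with animal 144 included, 3 without the 12 arrays, 4 without animal 336, 3 by ranks and 3 within the earlier numbers, and members called higher were 3 without the 12 arrays and 9 within the later numbers. The mean r between members was 0.116 with the most variable probe, and 14 single probes had 3 components. The cause of these changes was not tested. Under all of these alternatives, 2 calls had the opposite sign of the one reported, both with array SD. The settings without animal 336 and on single probes were chosen after seeing the data. Signal over background cannot be given, since intensities are not analysed here. No paired analysis was possible because all animals form 1 group with 1 array each.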
